A study of Mus musculus with 30 samples.

Results

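Livers of mice killed 12 months (360 days) after 0.2 Gy of 56Fe ions at 600 MeV/n were compared with livers of non-irradiated mice of the same time. The comparison rested on 6 of the 30 libraries of the study, chosen by their labels: 3 biological replicates from 56Fe-irradiated mice and 3 from control mice. All were male mice of a strain written as C57BL16 in the labels. The labels used here name no genetic modification, give no age at irradiation and do not say whether same-numbered mice shared a cage or a day. The remaining 24 libraries came from both arms at 1, 2, 4 and 9 months (30, 60, 120 and 270 days), and entered the fit to estimate the spread between livers. RNA came from cryotome slices of the frozen left lobe, was depleted of ribosomal RNA and was sequenced. The lobe slices hold every liver cell type, and a single piece of tissue stands for each mouse. The question was which transcripts still differed 12 months after a single low dose of heavy ions, and how far livers of 1 arm differed among themselves.

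Ions of iron deposit energy densely along their tracks and leave clustered DNA breaks, which cells answer through p53 and its targets, such as the cell cycle inhibitor Cdkn1a. The liver is otherwise largely quiescent. Its hepatocytes run daily programs of glucose, lipid and bile acid metabolism, and change to an acute phase program, under interleukin 6 and NF-kB signals, when the body meets infection or tissue injury. In that program they secrete serum amyloid A, haptoglobin, fibrinogen and orosomucoid and reduce part of their metabolic expression.

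The 6 libraries held 13751451 to 17237816 counts, against 7995248 to 20215995 over all 30. Of 51826 gene identifiers, 19685 were expressed enough to be tested. Albumin took 4.45% to 5.81% of counts in irradiated and 5.50% to 6.81% in control livers. The 20 tested hepatocyte markers summed to between 112300 and 118300 CPM (counts scaled to library size with TMM factors) in irradiated and between 119600 and 135200 CPM in control livers. Only 2 of 12 pancreatic acinar markers passed the filter on low counts, and the bile duct keratin Krt19 was below 1 CPM in all 6 libraries. No pair of libraries of an arm was a repeat deposit of another: the chi-square per gene was between 20.23 and 128.4.

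Replicate 2 of each arm stood apart from the other 2 livers of its arm, and did so in both arms for many of the same genes. In 211 genes (1.07% of those tested) replicate 2 was more than 2-fold above both other livers in the irradiated and in the control arm, and in 118 genes (0.599%) more than 2-fold below both. When the replicates of the arms were matched in the other 8 ways, the counts were 2 to 18 genes above and 2 to 34 below. Log2 CPM correlated at r = 0.984 between irradiated replicates 1 and 3 and at r = 0.985 between control replicates 1 and 3. Pairs with replicate 2 of the same arm gave r of 0.971 and 0.973 in irradiated and 0.959 and 0.960 in control livers. These r values are across genes, which are not independent replicates. By another measure, the distance from the mean log2 CPM of the other 2 livers of the arm, control replicate 2 was the most distant library. It had 3024 genes (15.4%) more than 2-fold from that mean, against 1356 to 1707 genes for each of the other 5.

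Acute phase genes were among the genes high in replicate 2 of both arms. Of 30 acute phase genes, 23 (76.7%) were more than 2-fold above in both arms, against the 1.07% of all genes. Saa1, which encodes serum amyloid A, was at 36.1, 4303 and 24.4 CPM in irradiated replicates 1, 2 and 3, and at 27.2, 1938 and 19.6 CPM in control replicates 1, 2 and 3. Its near-identical neighbour Saa2 followed it, at 26.2, 5922 and 19.5 CPM in irradiated and 14.4, 2342 and 14.1 CPM in control livers; reads shared by these copies make the split between them uncertain. The iron-binding lipocalin Lcn2 was at 5.90, 619 and 6.38 CPM in irradiated and 8.23, 1038 and 6.41 CPM in control livers. Replicate 2 was thus the high liver in each arm for each of these genes, and the arms overlapped. Orm2, an orosomucoid, was at 11.6, 1353 and 11.6 CPM in irradiated and 8.65, 202 and 7.62 CPM in control livers. The chemokine Cxcl1, which attracts neutrophils, was at 2.95, 173 and 6.88 CPM in irradiated and 5.21, 392.4 and 4.55 CPM in control livers. Haptoglobin (Hp), a plasma protein that binds free haemoglobin, was at 1882, 8792 and 1984 CPM in irradiated and 2118, 10100 and 2052 CPM in control livers. Replicate 2 was also the high liver for the metal-binding Mt1, at 3.87, 322 and 10.1 CPM in irradiated and 4.92, 768 and 5.77 CPM in control livers. Libraries as high in Saa1 also occurred at other times, where it ranged over 24 libraries from 9.49 to 5364 CPM with a median of 32.7 CPM.

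The promoters of 3 of these genes are shown because the acute phase genes moved together between livers. These 3 promoters were not drawn by a rule, all hold the motif marked below, and do not stand for the list. They run from 250 bases before to 50 bases after the transcription start, 5' to 3' on the gene's strand, and are RefSeq sequences on GRCm38.p6. In the promoters of Saa1 (chr7:46742931-46743230, minus strand), Lcn2 (chr2:32387690-32387989, minus strand) and Orm2 (chr4:63362199-63362498, plus strand), capitals mark TTGCNNAA, the core to which C/EBP factors bind.
Saa1: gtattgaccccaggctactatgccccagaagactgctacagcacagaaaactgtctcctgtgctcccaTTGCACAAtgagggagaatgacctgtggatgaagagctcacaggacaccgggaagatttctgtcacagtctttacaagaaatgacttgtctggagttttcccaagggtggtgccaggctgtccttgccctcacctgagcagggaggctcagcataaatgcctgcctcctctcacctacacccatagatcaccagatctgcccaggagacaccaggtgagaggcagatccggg
Lcn2: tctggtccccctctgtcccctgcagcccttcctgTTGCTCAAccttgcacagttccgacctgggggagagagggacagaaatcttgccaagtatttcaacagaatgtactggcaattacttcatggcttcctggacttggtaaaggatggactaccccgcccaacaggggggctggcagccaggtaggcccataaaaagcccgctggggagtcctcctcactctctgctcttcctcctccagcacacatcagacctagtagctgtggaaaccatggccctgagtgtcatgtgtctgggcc
Orm2: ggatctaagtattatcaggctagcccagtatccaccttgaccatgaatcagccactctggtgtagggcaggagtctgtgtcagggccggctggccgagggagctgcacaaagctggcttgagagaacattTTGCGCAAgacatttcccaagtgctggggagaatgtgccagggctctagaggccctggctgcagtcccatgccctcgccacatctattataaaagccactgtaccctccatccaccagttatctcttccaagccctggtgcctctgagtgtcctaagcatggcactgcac

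Both strands of every promoter were searched. TTGCNNAA was in 3547 of 32851 RefSeq mouse promoters (10.8%), and in 9.28% of the promoters of tested genes. Among the acute phase genes that were high in both livers of replicate 2, 19 matched the promoter table with 22 promoters, and 11 of these (50%) held TTGCNNAA. A STAT motif, TTCNNNGAA, was in 5 of the 22 (22.7%) and in 8.3% of all promoters, and an NF-kB motif was in 0 of the 22 and in 0.411% of all. Of the other acute phase genes, 4 promoters were matched, of which 1 held TTGCNNAA, 2 the STAT motif and 0 the NF-kB motif. These matches are letters in a window and were not tested as binding sites.

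Neutrophil transcripts went with the acute phase genes. Of 11 tested neutrophil markers, 9 (81.8%) were more than 2-fold above in replicate 2 of both arms. S100a9, a calcium-binding protein of neutrophils, was at 0.524, 9.45 and 0.574 CPM in irradiated and 0.633, 27.2 and 0.705 CPM in control livers. The summed level of the markers was 4.72, 28.2 and 5.31 CPM in irradiated and 6.26, 88.2 and 5.77 CPM in control livers. In slices of whole tissue, fewer cells of a type and less RNA per cell cannot be told apart.

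Genes of fatty acid oxidation, which the nuclear receptor PPAR-alpha drives, stood at the opposite end. Of 40 members of that list, 10 (25%) were more than 2-fold below in replicate 2 of both arms, against 0.599% of all genes. Cyp4a14, a microsomal fatty acid hydroxylase, was at 529, 11.1 and 646 CPM in irradiated and 799, 22.8 and 639 CPM in control livers. Its paralog Cyp4a10 was at 368, 28.9 and 301 CPM in irradiated and 353, 43.6 and 371 CPM in control livers. Both lay far lower in replicate 2 than in the other livers of either arm, and the arms overlapped. Members of the Cyp4a family are similar enough that reads may be shared between them. The thioesterase gene Acot3 was at 4.78, 0.319 and 8.32 CPM in irradiated and 19.0, 0.744 and 28.3 CPM in control livers, so the irradiated liver was the lower within every replicate number.

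**Figure D1:**
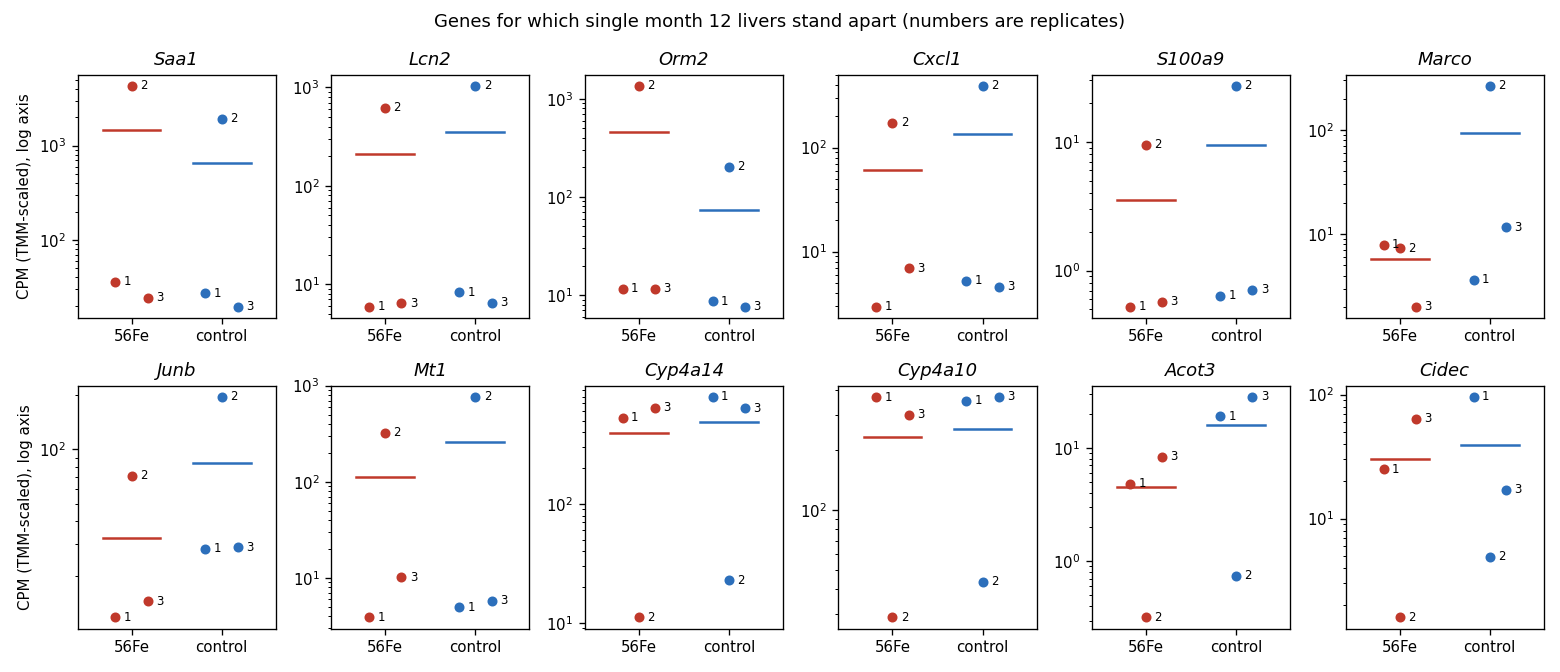
CPM (vertical axes, log scale, TMM-scaled) of 12 genes in the 3 irradiated (red, left) and 3 control livers (blue, right) of month 12; each point is 1 library with its replicate number, and bars are arithmetic means. Replicate 2 is the highest of both arms for Saa1, Lcn2, Orm2, Cxcl1, S100a9, Junb and Mt1 and the lowest of both for Cyp4a14, Cyp4a10, Acot3 and Cidec, while Marco is high only in control replicate 2, at 265 CPM.

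A further 1059 genes (5.38%) were more than 2-fold above both other livers in control replicate 2 and not in irradiated replicate 2. Macrophage and immediate early genes were among them, with 14 of 21 members of each list (66.7%). Marco, a scavenger receptor of macrophages, was at 7.86, 7.28 and 2.01 CPM in irradiated and 3.66, 265 and 11.6 CPM in control livers. The lysozyme gene Lyz2 was at 60.4, 48.9 and 34.7 CPM in irradiated and 32.8, 298 and 33.5 CPM in control livers. The early response factor Egr1 was at 1.44, 3.13 and 3.51 CPM in irradiated and 4.86, 50.2 and 9.23 CPM in control livers. Of the interferon-stimulated genes, 11 of 42 (26.2%) were in the same set.

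At month 12 the spread among irradiated livers lay within the range of the other groups. Among control livers, more genes had a high spread than in any other group. The median SD of log2 CPM within a group was 0.273 in irradiated and 0.297 in control livers of month 12, and ranged from 0.188 to 0.318 over all 10 groups. An SD above 1 was seen for 628 genes (3.19%) in irradiated and 1082 genes (5.50%) in control livers of month 12, and the control count was the highest of the 10 groups. When each month's 6 libraries were fitted alone, edgeR's common biological coefficient of variation was 0.281 at month 12. It was 0.191, 0.139, 0.133 and 0.216 at months 1, 2, 4 and 9.

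**Figure D2:**
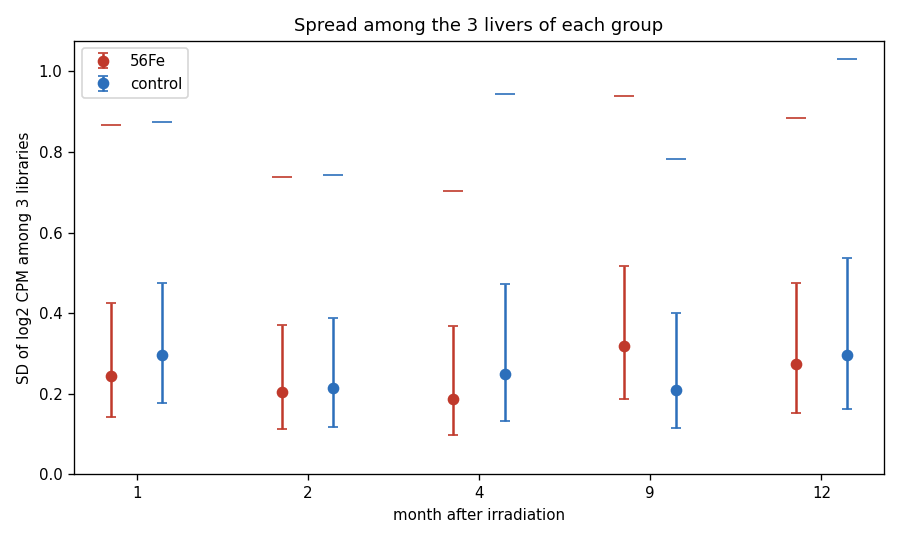
SD of log2 CPM among the 3 libraries of each group (vertical axis) by month after irradiation (horizontal axis), for irradiated (red, left) and control livers (blue, right); points are medians over 19685 genes, bars run from the lower to the upper quartile, and dashes mark the 95th percentile. The median is 0.273 in irradiated and 0.297 in control livers of month 12, and the control dash of month 12 is the highest, at 1.03.

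No gene passed the test of irradiated against control livers at month 12 after adjustment over all genes. The test took its spread from all 30 libraries, not from month 12 alone. edgeR's quasi-likelihood test called 0 of 19685 genes (0%) at an adjusted p under 0.05, against 906 (4.60%), 860 (4.37%), 708 (3.60%) and 326 (1.66%) at months 1, 2, 4 and 9. These counts depended on the shared fit. With each month's 6 libraries fitted alone they were 487, 3026, 1752, 0 and 0 at months 1, 2, 4, 9 and 12. The smallest adjusted p was 0.0629, shared by 12 genes. An adjusted p under 0.1 was reached by 40 genes, 11 higher and 29 lower in irradiated livers. At an unadjusted p under 0.05 there were 2648 genes (13.5%), of which 1113 were higher (5.65% of all tested) and 1535 lower (7.80%). That direction depended on scaling: 42.0% of these genes were higher with TMM factors, 47.0% with RLE factors and 56.2% with upper quartile factors. All 3 irradiated livers lay above all 3 controls in 1524 genes (7.74%) and below in 1532 (7.78%). The 95% interval of the log2 fold change lay within -1 and 1 for 11054 genes (56.2%). A change of more than 2-fold was within the interval for the others.

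Other settings made calls. DESeq2 called 163 genes, 69 higher and 94 lower, and limma's voom with sample weights called 1, Tns2. With each replicate number of each month as a block, edgeR called 39 genes (0.198%), 5 higher and 34 lower in irradiated livers. All 39 changed in the same direction within each of the 3 pairs. The blocked fit selects for such agreement and the pairs of month 12 were taken from these data, so this is no separate support. Its spread also rests on pairs of the same number at the earlier times, which were assumed. The number of calls was 41 without control replicate 1, 8 without control replicate 2, and 9 without replicate 2 of both arms. The 6 libraries alone gave 0 calls without the block and 0 with it, and 1286 and 1768 genes at an unadjusted p under 0.05. Their smallest edgeR adjusted p was 0.54 without the block and 0.282 with it.

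Among genes with no predicted name and with arms that did not overlap, those of smallest p and lower in irradiated livers came from several functions. Tns2 (tensin 2, an adaptor at focal adhesions; chromosome 15, 102100413 to 102116401 on GRCm38) was at 43.5, 69.2 and 48.5 CPM in irradiated and 85.3, 98.1 and 94.4 CPM in control livers. Every irradiated liver lay below every control, with irradiated replicate 2 the nearest. Its log2 fold change was -0.79 ± 0.14 (SE; edgeR adjusted p = 0.0629, and 0.0322 with the replicate block). Kdm6b (chromosome 11, 69398508 to 69413675), which encodes a demethylase of histone H3 lysine 27, was at 11.01, 13.8 and 10.97 CPM in irradiated and 20.7, 20.8 and 22.6 CPM in control livers. The arms did not overlap, and its log2 fold change was -0.84 ± 0.16 (SE; edgeR adjusted p = 0.0629, and 0.0463 with the block). Tns2 was called under 7 and Kdm6b under 6 of the alternative settings, leaving out the one with no low-count filter. Without replicate 2 of both arms their log2 fold changes were -0.92 and -0.93.

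The other 8 lower genes named by the same rule also had an edgeR adjusted p of 0.0629. That their arms did not overlap was set by the rule. Cideb (chromosome 14, 55754050 to 55758458), a protein of lipid droplets and lipoprotein secretion, was at 17.6, 15.4 and 15.6 CPM in irradiated and 32.4, 26.3 and 32.8 CPM in control livers. Smad6, an inhibitor of BMP signalling, was at 6.95, 5.36 and 5.74 CPM in irradiated and 12.4, 8.32 and 13.3 CPM in control livers. Their log2 fold changes were -0.91 ± 0.19 and -0.92 ± 0.19 (SE). Pom121, a protein of the nuclear pore, was at 9.18, 10.6 and 8.61 CPM in irradiated and 16.1, 19.3 and 14.9 CPM in control livers. H3f3a, which encodes the replication-independent histone H3.3, was at 17.4, 16.9 and 15.1 CPM in irradiated and 23.2, 25.04 and 25.7 CPM in control livers (log2 fold change -0.58 ± 0.12, SE). Rexo1, Lrrc47, Tmem104 and Proser1 had log2 fold changes of -0.73, -0.68, -0.71 and -0.77. Of the 10 genes, Kdm6b, Lrrc47, H3f3a, Cideb and Pom121 overlap a gene on the opposite strand, and the strand the counts were taken from is not stated, so reads of the partner cannot be told apart. Pnpla2, which encodes the fat lipase ATGL and was chosen after its values were seen, was at 26.7, 30.1 and 28.5 CPM in irradiated and 48.3, 44.8 and 45.4 CPM in control livers (edgeR adjusted p = 0.0629).

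By the same rule, which leaves out predicted genes, the genes of smallest p that were higher in irradiated livers reached an edgeR adjusted p of 0.0753. The predicted gene Gm22154, of the snoRNA type, reached 0.0743 in the same test, with a log2 fold change of 2.49 ± 0.50 (SE). Ormdl1 (chromosome 1, 53297095 to 53310309), a regulator of sphingolipid synthesis, was at 23.3, 21.1 and 22.2 CPM in irradiated and 14.8, 11.6 and 9.61 CPM in control livers. Its arms were apart, as the rule asked, and its log2 fold change was 0.89 ± 0.19 (SE, with an edgeR adjusted p of 0.0422 with the block). Arl4d, a small GTPase, had the largest change of the 10 genes, at 22.5, 30.5 and 28.1 CPM in irradiated and 6.89, 6.36 and 12.0 CPM in control livers (log2 fold change 1.68 ± 0.40, SE; edgeR adjusted p = 0.114). Tcaim, a mitochondrial protein named for T cell activation, was at 48.5, 41.5 and 36.7 CPM in irradiated and 27.2, 29.2 and 25.8 CPM in control livers (log2 fold change 0.62 ± 0.15, SE). Polr3k, a subunit of RNA polymerase III, was at 30.3, 27.1 and 27.4 CPM in irradiated and 20.1, 16.7 and 19.99 CPM in control livers (log2 fold change 0.58 ± 0.14, SE). Zfp367, Mettl23, Tgds, Tvp23b, Fastkd2 and Tyw5 had log2 fold changes between 0.44 and 0.81, with edgeR adjusted p between 0.0771 and 0.12. Mettl23 overlaps Jmjd6 and Srsf2 on the opposite strand, and Zfp367, Tgds and Tyw5 also have an opposite-strand partner.

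**Figure D3:**
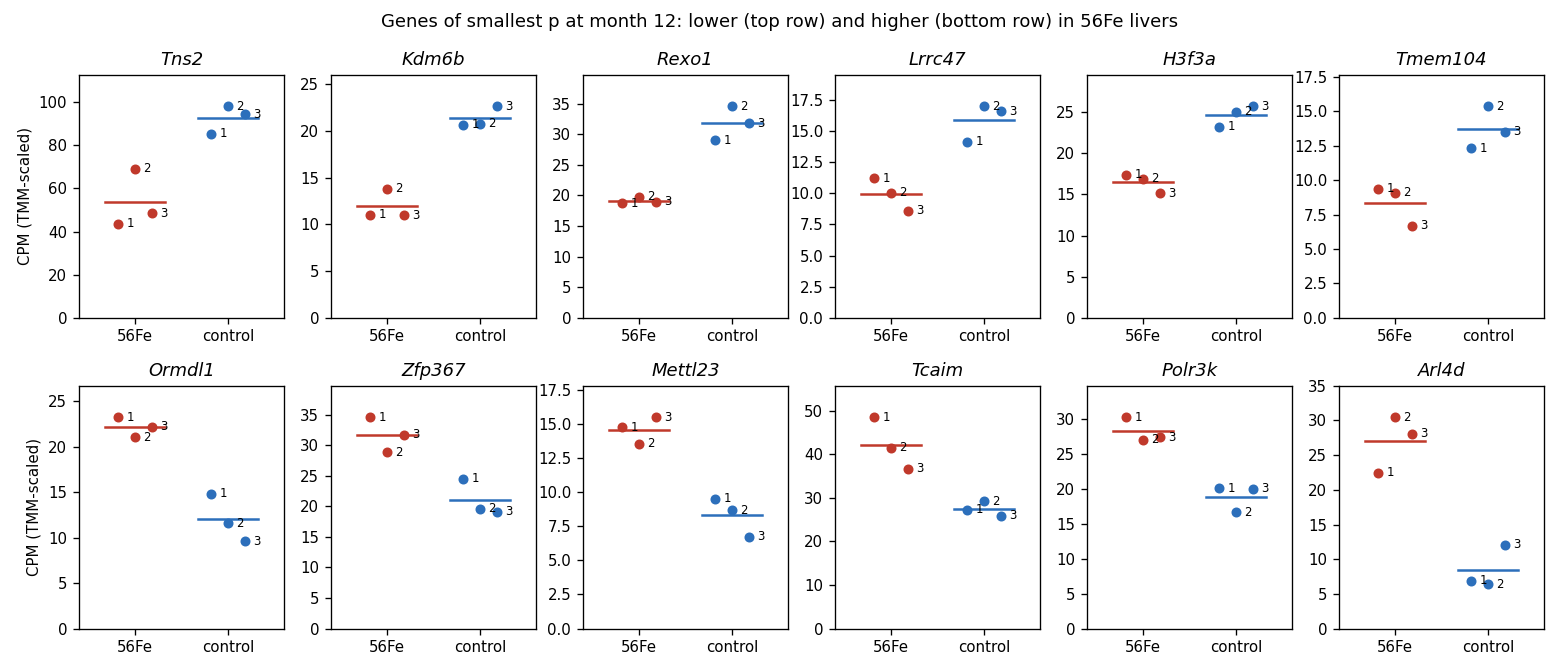
CPM (vertical axes, linear, TMM-scaled) of the 6 lower (top row) and 6 higher genes (bottom row) of smallest p at month 12, predicted genes left out. Irradiated livers are red (left) and control livers blue (right). Points are libraries with their replicate number and bars are means. The arms do not overlap in any of the 12 panels, by the rule that chose them, and none had an adjusted p under 0.05.

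Blocking by replicate number brought out genes whose level differed between replicates but kept its distance between arms. Pfkfb1 (chromosome X, 150588229 to 150643878), the liver enzyme that makes and breaks fructose 2,6-bisphosphate, was at 34.5, 25.4 and 39.4 CPM in irradiated and 66.7, 47.4 and 71.2 CPM in control livers. It was lowest in replicate 2 of both arms, and its edgeR adjusted p was 0.0318 with the block and 0.0934 without it. Midn was at 19.1, 31.6 and 19.9 CPM in irradiated and 32.9, 76.5 and 38.4 CPM in control livers, highest in replicate 2 of both (adjusted p 0.0322 with the block and 0.137 without it). Gstm1, a glutathione transferase, was at 619, 322 and 561 CPM in irradiated and 1081, 589 and 957 CPM in control livers (adjusted p with the block 0.0422). It and Acot3 were among the 34 genes called lower with the block although their arms overlap. Etfbkmt, a mitochondrial methyltransferase, was at 87.6, 74.0 and 53.9 CPM in irradiated and 40.8, 30.7 and 35.5 CPM in control livers. Its arms were apart, as the rule that named it asked. The log2 fold change was 1.01 ± 0.32 (SE, with an edgeR adjusted p of 0.181, and 0.129 with the block). Id2 and Fkbp5 were lower in irradiated livers in each pair, but did not pass with the block (adjusted p 0.106 and 0.2). The median GC content of the 39 called genes was 56.0%, against 48.6% over all genes tested.

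The lists of p53 targets and DNA repair genes had medians near that of all genes. None of 31 tested p53 targets and none of 46 DNA repair genes was called, as none of all genes was. Their median log2 fold changes were 0.00 and -0.08, against -0.02 over all genes, with 15 p53 targets and 29 DNA repair genes negative. Without replicate 2 of both arms the medians were 0.17 and -0.05, against 0.07 over all genes. That 0.07 is also the background of the other list medians given for this setting. At an unadjusted p under 0.05, 2 p53 targets were higher and 3 lower, and 0 DNA repair genes were higher and 2 lower, against 5.65% higher and 7.80% lower of all genes. Cdkn1a was at 2.75, 3.00 and 7.24 CPM in irradiated and 4.36, 29.0 and 7.82 CPM in control livers. The arms overlapped, and control replicate 2 was the high liver. Its log2 fold change was -1.67 ± 0.50 (SE; edgeR adjusted p = 0.162), and -0.54 without control replicate 2. It was called lower under 2 alternatives, with DESeq2 and with edgeR without control replicate 1, and under none of the others run. Trp53 itself was at 8.39, 9.96 and 6.10 CPM in irradiated and 10.9, 17.4 and 14.5 CPM in control livers, with the arms apart (log2 fold change -0.81 ± 0.22, SE; edgeR adjusted p = 0.132). Mdm2, which degrades p53, was at 46.7, 43.1 and 51.5 CPM in irradiated and 40.0, 54.4 and 50.2 CPM in control livers. Its log2 fold change of -0.03 had a 95% interval of -0.28 to 0.21. Eda2r, a p53 target that encodes a TNF receptor family member, was at 3.93, 2.17 and 13.1 CPM in irradiated and 5.42, 5.75 and 5.83 CPM in control livers. Phlda3, an inhibitor of AKT, was at 1.05, 1.149 and 3.87 CPM in irradiated and 1.69, 2.37 and 2.18 CPM in control livers. For both, irradiated replicate 3 was the highest of the 6 livers and the other 2 irradiated livers the lowest. Ei24 and Trp53inp1 were the 2 targets that were higher with the arms apart, as were 7.74% of all genes. Gadd45a, a DNA damage gene in neither list, was chosen after its values were seen. It was at 2.10, 1.66 and 2.37 CPM in irradiated and 5.42, 11.4 and 5.06 CPM in control livers. Its log2 fold change was -1.83 ± 0.40 (SE, with an edgeR adjusted p of 0.0771). Gadd45a was called under 2 of the alternative settings, leaving out the one with no low-count filter. The histone H2afx, whose protein marks DNA breaks, was at 4.78, 2.49 and 2.87 CPM in irradiated and 5.14, 5.68 and 4.998 CPM in control livers (log2 fold change -0.64 ± 0.27, SE; edgeR adjusted p = 0.299).

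Immediate early, neutrophil and macrophage genes had the most negative list medians, and the sign of 2 of these rested on replicate 2. The median log2 fold change of 21 immediate early genes was -0.88, with 20 negative, and became 0.11 without replicate 2 of both arms. That of 21 macrophage genes was -0.64, with 18 negative, and became 0.34. That of 11 neutrophil genes was -1.38, with all 11 negative, and became -0.19. None of these genes was called, and the median of all genes was 0.07 without replicate 2 of both arms. The macrophage markers summed to 669, 797 and 404 CPM in irradiated and 383, 2236 and 429 CPM in control livers. Without control replicate 2 the log2 fold change of Marco was -0.43, against -4.02 ± 1.26 (SE; edgeR adjusted p = 0.183) with all 6 livers. In the same way, that of Hmox1, the heme oxygenase, was 0.00 without control replicate 2 and -1.62 ± 0.52 (SE; edgeR adjusted p = 0.187) with it, and Serpina3g, a serine protease inhibitor, gave 0.07 and -2.11 ± 0.73 (SE). The 16 antigen presentation genes had a median of -0.30 with 15 negative, and 0.10 without replicate 2 of both arms. B2m, the light chain of MHC class I, had its arms apart, at 992, 952 and 852 CPM in irradiated and 1100, 1247 and 1183 CPM in control livers (log2 fold change -0.34 ± 0.14, SE; edgeR adjusted p = 0.312). The 42 interferon-stimulated genes had a median of -0.17, and 0.40 without replicate 2 of both arms.

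Lipid synthesis genes were mostly lower in irradiated livers, and cholesterol genes mostly higher, without any call. Of 22 genes of de novo lipogenesis, 20 had a negative log2 fold change (median -0.26; -0.20 without replicate 2 of both arms), and 2 were lower at an unadjusted p under 0.05, against 7.80% of all genes. Acacb, the acetyl-CoA carboxylase at mitochondria, was at 313, 210 and 428 CPM in irradiated and 769, 297 and 605 CPM in control livers, and the arms overlapped (log2 fold change -0.81 ± 0.34, SE; edgeR adjusted p = 0.316). G6pdx, which supplies NADPH, was at 6.55, 6.96 and 6.02 CPM in irradiated and 9.57, 13.3 and 9.48 CPM in control livers, with the arms apart. Fatty acid synthase (Fasn) was at 2112, 1342 and 3199 CPM in irradiated and 4495, 1413 and 3289 CPM in control livers (log2 fold change -0.47 ± 0.46, SE). Of 24 cholesterol synthesis genes, 19 were positive (median 0.18), and in 5 all irradiated livers lay above the controls, as in 7.74% of all genes. Insig1, which retains the sterol sensor in the endoplasmic reticulum, was at 856, 790 and 695 CPM in irradiated and 595, 299 and 463 CPM in control livers (log2 fold change 0.79 ± 0.22, SE; edgeR adjusted p = 0.132). Dhcr7, which makes cholesterol from 7-dehydrocholesterol, had a log2 fold change of -0.45. The 40 PPAR-alpha genes had a median of -0.06 and the 22 bile acid genes one of 0.11.

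**Figure D4:**
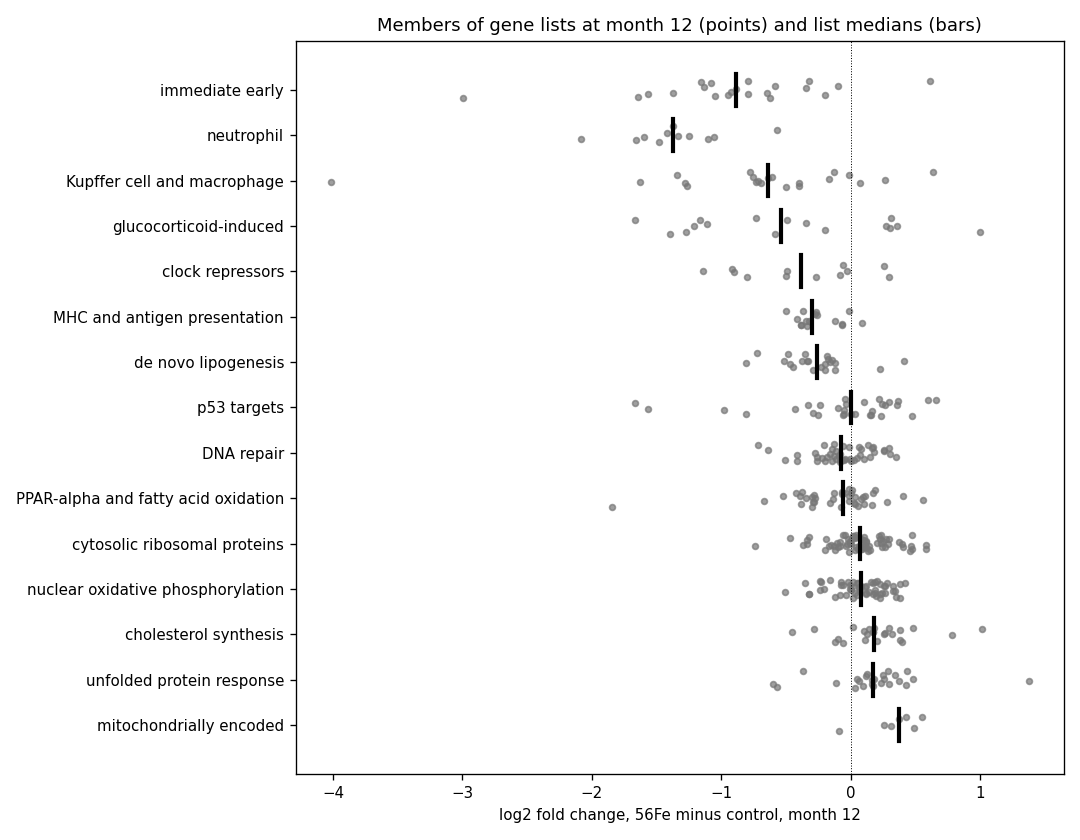
Log2 fold change of irradiated over control livers at month 12 (horizontal axis) of the members of 15 gene lists (rows); points are genes and black bars list medians. Medians run from -1.38 (neutrophil) and -0.88 (immediate early) to 0.37 (mitochondrially encoded), against -0.02 over all genes. The arms overlap for all 7 mitochondrially encoded genes, and none had an unadjusted p under 0.05.

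Clock repressors and outputs had negative medians, and no member was called, as none of all genes was. Of 12 repressors, 10 were negative, with a median of -0.38, and of -0.57 without replicate 2 of both arms. Of 8 outputs, 6 were negative, with medians of -0.25 and -0.52. The 7 activators had medians of 0.14 and 0.21, against -0.02 and 0.07 over all genes. Some clock genes varied more among controls than among irradiated livers. Dbp, an output of the clock, was at 23.9, 19.7 and 28.1 CPM in irradiated and 66.5, 5.96 and 70.4 CPM in control livers. The irradiated livers lay between the controls, of which replicate 2 was low. Nr1d1, the repressor REV-ERB alpha, was likewise at 37.0, 38.7 and 35.5 CPM in irradiated and 84.8, 25.7 and 97.1 CPM in control livers. It was called lower without control replicate 2 and without replicate 2 of both arms. Arntl, which encodes the activator BMAL1, was at 12.3, 10.2 and 6.88 CPM in irradiated and 8.44, 14.7 and 7.95 CPM in control livers (log2 fold change -0.08 ± 0.36, SE). Por, the reductase of all microsomal cytochromes P450, was at 233, 216 and 206 CPM in irradiated and 411, 265 and 391 CPM in control livers (log2 fold change -0.70 ± 0.18, SE; edgeR adjusted p = 0.121). Of 16 glucocorticoid-induced genes, 11 were negative. Their median was -0.54, and -0.05 without replicate 2 of both arms, against 0.07 over all genes in that setting. At an unadjusted p under 0.05 in edgeR, 2 were higher and 3 lower, against 5.65% and 7.80% of all genes. Tsc22d3 (GILZ) was at 206, 292 and 254 CPM in irradiated and 121, 107 and 148 CPM in control livers, while Fkbp5, a chaperone of the receptor, was at 31.9, 73.1 and 51.6 CPM in irradiated and 93.5, 169 and 89.2 CPM in control livers. Both had their arms apart, with log2 fold changes of 1.00 ± 0.29 and -1.17 ± 0.38 (SE; edgeR adjusted p = 0.157 and 0.201). The times of day of collection are not given in the labels used here.

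Genes of protein folding and the ribosome had small positive medians. Of 25 genes of the unfolded protein response, 21 were positive (median 0.17). The smallest p among them was that of Derl3, which helps clear misfolded proteins from the endoplasmic reticulum, at 7.93, 12.5 and 1.72 CPM in irradiated and 1.34, 4.13 and 3.08 CPM in control livers, with overlapping arms. Of 70 cytosolic ribosomal proteins, 46 were positive (median 0.07), 7 were higher and 2 lower at an unadjusted p under 0.05, against 5.65% and 7.80% of all genes. Rps3 was at 215, 191 and 168 CPM in irradiated and 134, 153 and 95.6 CPM in control livers, and Rpl23a was at 10.2, 6.83 and 6.81 CPM in irradiated and 11.6, 15.6 and 12.7 CPM in control livers. Ribosomal protein genes have many processed copies in the genome, so their counts are uncertain. Of 58 nuclear genes of oxidative phosphorylation, 40 were positive (median 0.08), and 6 of 7 tested mitochondrially encoded genes were (median 0.37). None of these 7 had an unadjusted p under 0.05 or arms apart. They summed to 21200, 23590 and 20230 CPM in irradiated and 20330, 16340 and 25470 CPM in control livers, and the arms overlapped. The mean mitochondrial share of a library was 2.76 ± 0.349% for irradiated livers and 2.84 ± 0.666% for controls (SD, n = 3 each). The 70 ribosomal and 58 oxidative phosphorylation genes kept the sign of their medians with RLE and upper quartile factors and without replicate 2 of both arms.

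Markers of other liver cells, like all genes, had no call. The 14 sinusoidal endothelial genes had a median of -0.17, which was 0.03 without replicate 2 of both arms, against 0.07 over all genes. Of them, 2 were higher and 4 lower at an unadjusted p under 0.05, against 5.65% and 7.80% of all genes. Gpr182, a scavenging chemokine receptor of that endothelium, was at 16.97, 12.2 and 13.2 CPM in irradiated and 18.5, 18.8 and 19.9 CPM in control livers. The 16 stellate cell and matrix genes had a median of -0.19, which was 0.08 without replicate 2 of both arms, near the 0.07 of all genes. Ecm1, an extracellular matrix protein, was at 38.7, 32.4 and 33.2 CPM in irradiated and 53.1, 52.6 and 59.6 CPM in control livers. Ecm1 had its arms apart (log2 fold change -0.66 ± 0.16, SE; edgeR adjusted p = 0.11). The erythroid Hba-a1 was at 5.77, 3.64 and 7.32 CPM in irradiated and 11.4, 19.6 and 8.14 CPM in control livers.

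The other lists also held no called gene. Median log2 fold changes were -0.15 for 30 cell cycle genes, with 22 negative, and -0.42 for 12 senescence genes, with 10 negative. Without replicate 2 of both arms they were 0.20 and 0.14, against 0.07 over all genes. The 44 xenobiotic genes had a median of -0.05, the 23 NRF2 genes one of 0.06 and the 21 fasting genes one of -0.02. The 23 male-biased genes had a median of 0.13, with 18 positive, and of 0.43 without replicate 2 of both arms. Mup3, a major urinary protein, was at 6813, 4968 and 4865 CPM in irradiated and 3075, 3706 and 4794 CPM in control livers. Mup genes are near copies of each other, so this value is uncertain. Hspa1a, an inducible heat shock protein with a near-identical neighbour in the genome, was at 2.36, 0.447 and 0.43 CPM in irradiated and 0.0704, 0.406 and 0.256 CPM in control livers, and so below 1 CPM in 5 of the 6 libraries.

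Library composition differed between the arms beside these values. Gm26917, a long non-coding RNA gene next to a ribosomal RNA pseudogene, took 0.759% to 1.04% of counts in irradiated and 1.33% to 2.04% in control livers. The mean was 0.87 ± 0.151% in irradiated and 1.65 ± 0.359% in control livers (SD, n = 3 each; two-sided exact permutation p = 0.1, the smallest that 3 against 3 allows). The nuclear RNA Malat1 took 0.284% to 0.339% of counts in irradiated and 0.3% to 0.427% in control livers, which overlapped (two-sided exact permutation p = 0.2). Genes with counts numbered 34482, 35072 and 37223 in irradiated and 32072, 31679 and 32311 in control livers. The log2 fold change followed GC content: over 5 bins of rising GC content, its median was 0.06 in the lowest and -0.14 in the highest bin. Genes higher in irradiated livers at an unadjusted p under 0.05 had a median GC of 45.4%, those lower one of 51.8%, and all tested genes one of 48.6%. With the Gm26917 level as a covariate, 1225 genes had an unadjusted p under 0.05, against 2648, and 0 were called. With GC offsets the numbers were 2451 and 0. The part of composition in single differences was not tested further.

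Most genes called at earlier times had the opposite sign at month 12. Of the 906, 860, 708 and 326 genes called at months 1, 2, 4 and 9, 41.8%, 30.0%, 24.3% and 41.7% had the same sign at month 12, and 0 were called. Their median log2 change at month 12, counted in the direction of the earlier call, was -0.06, -0.14, -0.20 and -0.04. For month 4, 19 genes had the same and 164 the opposite direction at an unadjusted p under 0.05 at month 12. The months share no library. With voom, the month 9 share was 53.9%. The mean Gm26917 level was likewise higher in irradiated livers at month 4, at 9714 ± 641 against 5706 ± 365 CPM in controls, and lower at month 12, at 9210 ± 1954 against 17530 ± 3476 CPM in controls (SD, n = 3 each). Its part in these reversals was not tested.

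**Figure D5:**
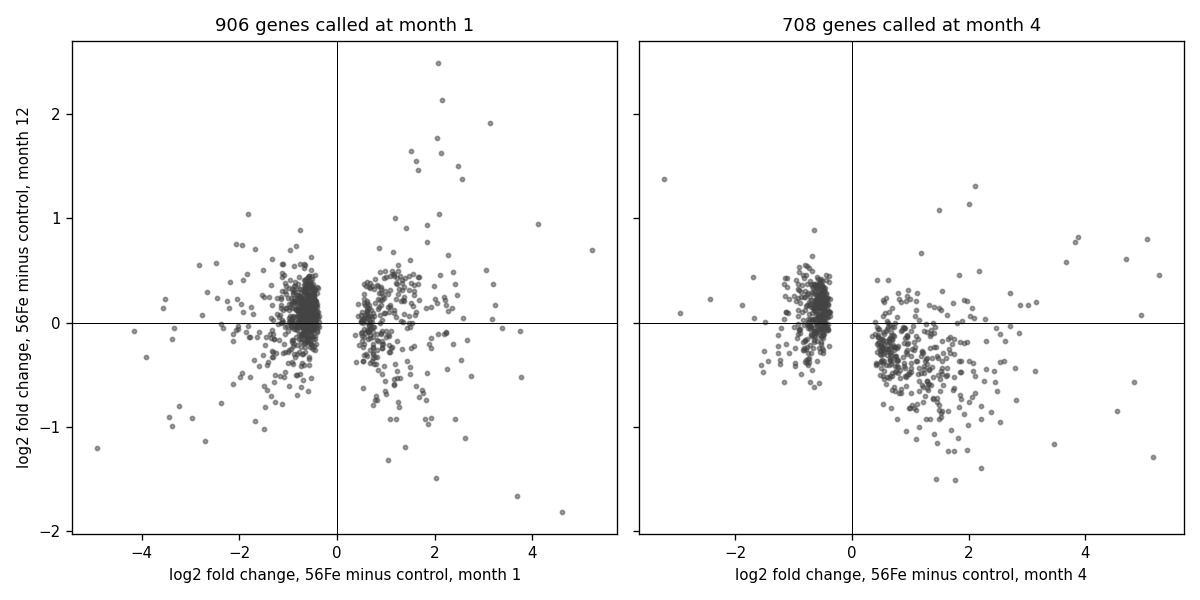
Log2 fold change of irradiated over control livers at month 12 (vertical axes) against that at month 1 (left) and month 4 (right, horizontal axes), for the 906 and 708 genes called at those months; each point is a gene. Of the genes called at month 1, 41.8% have the same sign at month 12, and of those called at month 4, 24.3%.

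The irradiation effect itself was tested for a difference between times. Between month 12 and month 1 it differed for 608 genes (3.09%), with 380 higher and 228 lower at month 12 (edgeR interaction contrast, adjusted p under 0.05). Arntl led the lower genes: its log2 fold change was -0.08 at month 12 and 3.75 at month 1, a difference of -3.83 ± 0.56 (SE; adjusted p = 0.00185). Coq10b, which binds coenzyme Q, had 0.21 at month 12 and -2.25 at month 1 (difference 2.46 ± 0.31, SE; edgeR adjusted p = 0.000141). The nuclear receptor Nr3c2, which binds aldosterone, had 0.41 at month 12 and -0.97 at month 1 (difference 1.37 ± 0.17, SE; edgeR adjusted p = 0.000141). In each of these the large change was that of month 1. Ppard, the PPAR delta receptor, differed by -2.01 ± 0.34 (SE), with -0.93 at month 12 and 1.09 at month 1. The number of calls was 1093 with the replicate block, and ranged from 161 to 1624 when each of the 12 libraries was left out in turn, with 1624 without control replicate 3 of month 1.

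Between month 12 and month 9 the effect differed for 186 genes (0.945%), 29 higher and 157 lower at month 12. Dot1l, the methyltransferase of histone H3 lysine 79, was at 15.9 ± 0.82 CPM in irradiated and 27.5 ± 2.54 CPM in control livers at month 12, and at 23.1 ± 8.83 CPM in irradiated and 13.4 ± 0.627 CPM in control livers at month 9 (SD, n = 3 each). Its effect thus had opposite signs, -0.79 at month 12 and 0.78 at month 9 (difference -1.58 ± 0.26, SE; edgeR adjusted p = 0.00585). Pom121 had -0.82 at month 12 and 0.76 at month 9, and Creb3l2, a transcription factor of the secretory pathway, -0.96 at month 12 and 0.99 at month 9 (differences -1.58 and -1.95; edgeR adjusted p = 0.00585 for both). The orphan receptor gene Esrra, a driver of mitochondrial genes, differed the other way, with 0.24 at month 12 and -0.79 at month 9. The number of calls was 1 with a surrogate variable and 457 with the replicate block. It ranged from 13 to 1151 when each of the 12 libraries was left out in turn, and 1151 was the number without irradiated replicate 2 of month 9.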

How the data were processed

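The authors deposited raw read counts per Ensembl gene for 30 libraries. Per the labels, reads were aligned to GRCm38 with STAR 2.5.3a, and reads per gene of Gencode M14 were taken from its GeneCounts mode. Which strand column was used is not given in the sources used here. Gencode M21 gave symbols and coordinates for 51633 of 51826 identifiers.

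All 30 libraries entered a robust quasi-likelihood fit in edgeR 4.0.16 (R 4.3.3), with a coefficient for each group and TMM factors, after filterByExpr (count 10, total 15). Genes with a Benjamini-Hochberg adjusted p under 0.05 were called. The spread behind each p-value is that between samples labelled biological replicates. DESeq2 1.42.0, limma 3.58.1 and sva 3.50.0 served as alternatives. A log2 fold change is irradiated over control.

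At month 12, deviations from the group means correlated between same-numbered libraries of the arms at r = 0.186, 0.346 and 0.186, so the numbers were taken as pairs from the data, not from the labels. The 0.346 is that of replicate 2, and the difference between replicates 1 and 3 correlated between arms at r = 0.066, so the pairing rests on replicate 2. Irradiated replicate 3 correlated more with control replicate 1 (r = 0.233). The blocked fit used 15 blocks, 1 for each month and number. Correlations between same-numbered libraries are given for month 12 only, so the pairs of the earlier times were assumed. Every adjusted p and count of calls from the 15 blocks, including those for differences between times, rests partly on these assumed pairs.

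Named genes were up to 10 per direction of smallest p with a mean of at least 1 CPM, arms that did not overlap and no predicted name. Added were the list members of smallest p, the 5 leading genes per direction of the blocked fit of 6 libraries and of each difference between times, and Cdkn1a, Mdm2, Phlda3, Eda2r, Arntl, Dbp, Gm26917 and Malat1. Other list members and all genes of the replicate 2 account were picked with their values in view. The groups, lists and rules were chosen with earlier results of these data known. Figures were drawn with matplotlib 3.10.9. Some genes that this rule names are not reported here.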

Additional observations from a re-analysis of the deposited data

Results flagged for a closer look

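The difference between irradiated and control livers was not the same at month 12 as at other times for single genes, by edgeR's interaction contrasts. The effect at month 12 minus that at month 1 was called for 608 genes. Among the genes of smallest p it was 1.37 for Nr3c2, 2.46 for Coq10b, 1.45 for the monocarboxylate carrier Slc16a12, 1.42 for the clock repressor Nr1d2 and 2.31 for the major urinary protein Mup22 on the log2 scale. Mup genes are near copies, so the value for Mup22 is uncertain. It was -3.83 for Arntl, -1.59 for St5, -1.40 for the manganese exporter Slc30a10, -1.54 for Dot1l and -2.01 for Ppard.

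The effect at month 12 minus that at month 9 was called for 186 genes. It was 0.94 for Wdr91, 0.86 for the linker histone H1f0, 1.59 for Cebpe, 1.03 for Esrra and 1.03 for Tgds. It was -1.58 for Pom121, -1.58 for Dot1l, -1.95 for Creb3l2, -1.33 for the splicing factor Sf1 and -1.28 for Proser1. Counts without single libraries are given with the processing alternatives.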

How the results depend on the processing

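Month 12 had 0 calls with TMM factors, RLE factors, a 1 CPM filter, a surrogate variable, the Gm26917 covariate, GC offsets, the 18 libraries of months 4, 9 and 12, and the 6 libraries alone with or without the replicate block. It had 17 with upper quartile factors, 56 with no low-count filter, 163 with DESeq2, 1 with limma voom, 39 with the replicate block in all 30 libraries, 8 with GC offsets and that block together, 9 without replicate 2 of both arms, and 0 to 41 when single libraries were left out. Unadjusted p under 0.05 was reached by 4497 genes with no filter, 1286 with the 6 libraries alone and 1225 with the covariate. The 608 calls of month 12 minus month 1 became 365 with no filter, 1183 with DESeq2, 1377 with voom and 1093 with the block, and 161 to 1624 in turn without each library. The 186 of month 12 minus month 9 became 338, 721 (no filter, DESeq2), 1 with a surrogate variable, 457 with the block and 13 to 1151 without single libraries. The share of month 9 genes of the same sign was 53.9% with voom.

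Log2 fold changes of named genes at month 12 kept their direction and side of the threshold in 1277 repeats, passed it in 89 and reversed in 32. Differences between times kept the call in 357 and lost it in 43. With the Gm26917 covariate Apoa1 was 0.145, Malat1 0.0626, Arntl 0.265 and Eda2r -0.881. Mdm2 was 0.00832 with upper quartile factors, 0.00441 with the 1 CPM filter, 0.0796 with voom, 0.0335 with a surrogate variable and 0.166 without replicate 2 of both arms. Phlda3 was 0.0016 with upper quartile factors, 0.151 with GC offsets and 0.369 without replicate 2 of both arms. Eda2r was -0.169 with a surrogate variable, -0.165 with either replicate block and -0.23 with GC offsets and the block. Arntl was 0.0591 with voom and 0.278 without replicate 2 of both arms, where Hmox1 was 0.18 and Serpina3g 0.16. Without single month 12 libraries, Hmox1 ranged from -2.04 to 0.00127, Serpina3g from -2.62 to 0.0682, Mdm2 from -0.176 to 0.0529, Phlda3 from -0.898 to 0.245, Eda2r from -0.876 to 0.588 and Arntl from -0.307 to 0.241. The cause was not tested. The GC settings were chosen after seeing the data. Each arm held 3 livers, and the median SE of a log2 fold change was 0.284.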
